A study of Homo sapiens with 10 samples.

Results

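The 9 genes described here encode MYC, its partner MAX, the proteins that compete with MYC for MAX (MXD1, MXI1, MXD3, MXD4, MNT and MGA), and TFAP4, a transcription factor that binds a related DNA motif. They were taken from the 28380 genes of the table by their symbols, and all 9 were among the 13378 genes with enough counts to test. The group was selected on the SFN against DMSO values of these same libraries, in which some of its members showed large changes. Their changes are therefore given as a description, and no p-value is given for them.

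RPE-1, an established line of human retinal pigment epithelial cells immortalized with telomerase, was treated in complete medium for 4 h with 25 µM sulforaphane (SFN), an isothiocyanate from cruciferous vegetables, or with the vehicle DMSO. Each group had 5 replicates of this line, per the labels the groups differed in the agent alone, and RNA was sequenced as QuantSeq libraries, which read the 3′ ends of transcripts. The study's methods count cells per replicate and speak in general of independent replicates, but neither they nor the labels say that these libraries came from separate cultures, and p-values measure the spread between these libraries only. Levels are given in CPM, read counts scaled to a common library size.

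MYC and MAX are basic helix-loop-helix leucine zipper proteins that pair with each other and bind the E-box CACGTG, where the pair activates transcription of genes for growth, ribosome production and metabolism. MAX also pairs with the MXD proteins, MNT and MGA, which bind the same motif and recruit repressors, SIN3 and histone deacetylases in the case of the MXD proteins and MNT, and a Polycomb complex in the case of MGA. TFAP4 is encoded by a gene that MYC is known to induce. It binds CAGCTG and is best known as a repressor of the cell cycle inhibitor CDKN1A.

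The total count per library ranged from 12375860 to 20666692. DMSO replicate 1 stood apart, and without it the number of genes called (adjusted p under 0.05, edgeR quasi-likelihood, p-values adjusted after Benjamini and Hochberg) rose from 1214 to 3058 for higher and from 1862 to 3193 for lower genes. Results that rest on this library are given with and without it. HMOX1, a stress gene known to respond to SFN, rose from 19.9 ± 3.01 CPM (SD, n = 5) to 53.1 ± 3.13 CPM, a log2 fold change of 1.42 ± 0.12 (standard error). Of 12 retinal pigment epithelium markers, BEST1, MITF and OTX2 had at least 97 counts in every library, RPE65, RLBP1, TYRP1, TTR and SERPINF1 had at most 4, LRAT had 3 to 12, PMEL had 7 to 29, and DCT and TYR had no row in the table. Of the 4 that could be tested, MITF and OTX2 were called lower in SFN and BEST1 and PMEL were not called. Without DMSO replicate 1, 1 of these 4 markers was called higher and 2 lower, where 22.5% and 23.5% of all genes tested were. The part of these markers in the results was not tested. Of 8 epithelial and mesenchymal markers, KRT8, KRT18, VIM, CDH2 and FN1 had at least 2396 counts in every library and COL1A1 had 124 to 356, while the epithelial gene EPCAM had at most 2 and CDH1 had no row, and the 6 of 8 markers of other cell types that the table holds had at most 13 counts. In bulk RNA, fewer cells of a type and less RNA per cell cannot be told apart.

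Promoter sequence is shown for 4 of the competing proteins, because they differ in whether they hold CACGTG or CAGCTG, and because the genes were called in different directions. Each run is the 250 bases before the start of transcription that RefSeq gives on GRCh38.p14, read 5′ to 3′ on the strand of the gene, and capitals mark a CACGTG or CAGCTG. Both motifs are palindromes, so a match on one strand is a match on the other, and they do not overlap each other.
MXD1: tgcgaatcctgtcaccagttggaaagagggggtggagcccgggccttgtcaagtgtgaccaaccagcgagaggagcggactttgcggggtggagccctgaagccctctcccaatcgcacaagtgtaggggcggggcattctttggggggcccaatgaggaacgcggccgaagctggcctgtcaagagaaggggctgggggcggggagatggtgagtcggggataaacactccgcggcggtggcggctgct
MXD3: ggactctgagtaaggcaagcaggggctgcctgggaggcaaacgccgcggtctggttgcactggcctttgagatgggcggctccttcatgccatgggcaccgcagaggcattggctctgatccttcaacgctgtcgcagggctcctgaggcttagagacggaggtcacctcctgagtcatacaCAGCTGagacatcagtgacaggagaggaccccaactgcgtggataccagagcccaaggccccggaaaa
MXD4: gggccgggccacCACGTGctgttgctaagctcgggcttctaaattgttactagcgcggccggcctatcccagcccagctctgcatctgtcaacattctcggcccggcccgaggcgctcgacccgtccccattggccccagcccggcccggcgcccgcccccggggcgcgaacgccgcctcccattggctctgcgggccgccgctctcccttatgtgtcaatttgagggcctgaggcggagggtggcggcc
MNT: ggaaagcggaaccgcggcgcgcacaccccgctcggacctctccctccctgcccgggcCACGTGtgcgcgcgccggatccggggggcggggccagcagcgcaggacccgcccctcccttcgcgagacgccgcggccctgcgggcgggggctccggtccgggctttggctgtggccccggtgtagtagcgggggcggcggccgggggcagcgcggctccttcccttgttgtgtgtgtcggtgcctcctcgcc
The MXD1 run, at chr2:69914859-69915108 on the plus strand, holds neither motif. The MXD3 run, at chr5:177312753-177313002 on the minus strand, holds CAGCTG at position -68 from the start. CACGTG lies at position -238 in the MXD4 run, at chr4:2262110-2262359 on the minus strand, and at position -193 in the MNT run, at chr17:2401061-2401310 on the minus strand. Of 35116 promoters in the same table, 6.34% hold CACGTG and 14% hold CAGCTG in these 250 bases. The table has 12 windows for 7 of the 9 genes. MAX and MXI1 have neither motif in any of their windows, and 1 of the windows of MGA has CAGCTG at position 26 after the start. A match is a description of the letters and not a binding site, and no match says only that these letters are not in this window.

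Of the 9 genes, 3 were called higher in SFN (MYC, MXD1 and MXD4), 4 were called lower (MXD3, MNT, MGA and TFAP4), and 2 were not called (MAX and MXI1). Over all genes tested, 9.07% were called higher and 13.9% lower by the same edgeR test. In 4 of the 9 genes every SFN library lay above every DMSO library and in 2 every SFN library lay below, where 8.78% and 11.1% of all genes tested did so. Since the genes were selected on this comparison, nothing is read from these counts.

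**Figure D1:**
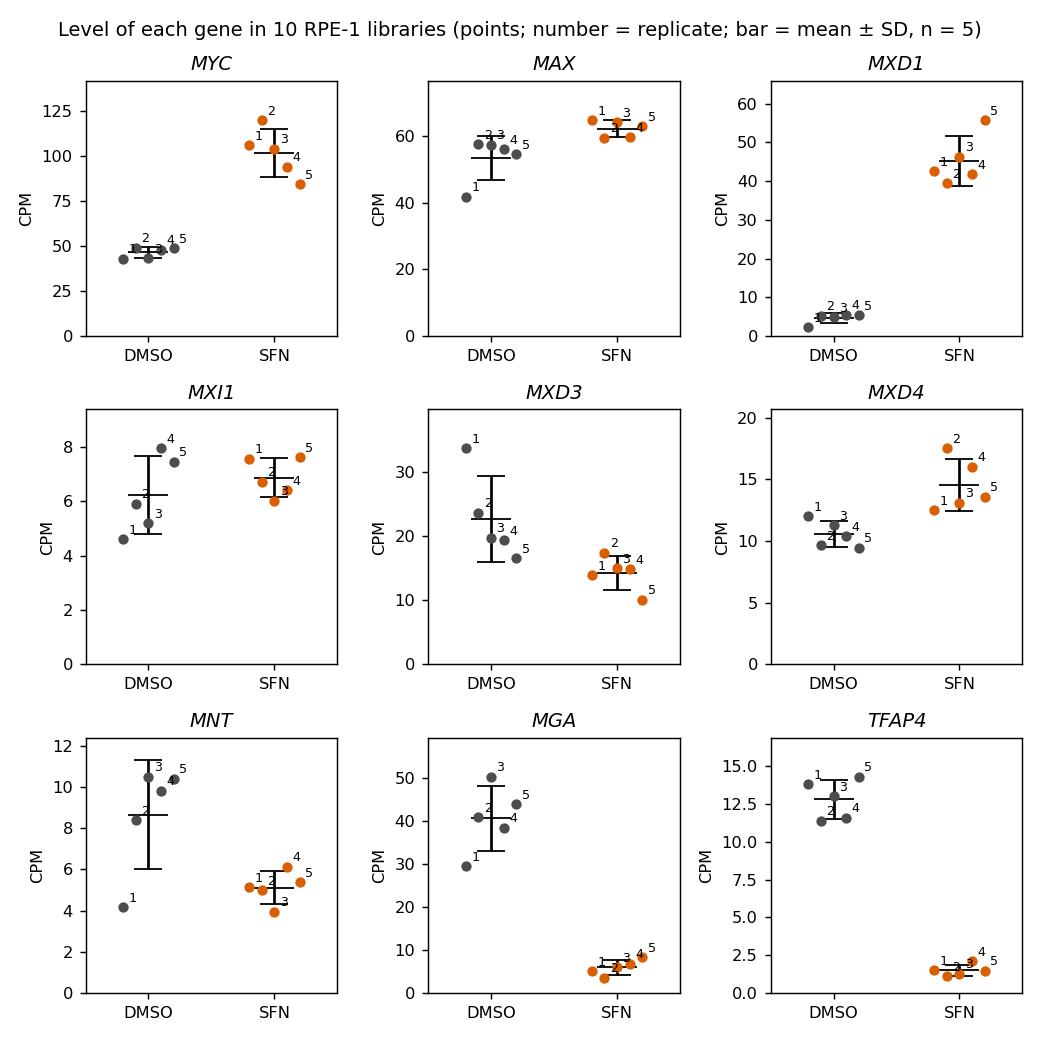
Level in CPM (vertical axis, from 0) of each of the 9 genes in the 5 DMSO and 5 SFN libraries of RPE-1 cells; points are libraries numbered by replicate, and bars show the mean ± SD. MXD1 lies between 39.4 and 55.8 CPM in SFN against 2.24 to 5.54 in DMSO, while TFAP4 lies between 1.12 and 2.09 CPM in SFN against 11.4 to 14.3 in DMSO.

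MYC, the transcription factor that gives the network its name, was higher in SFN. The gene lies at chr8:127735434-127742951 on the plus strand (GENCODE 44, GRCh38), and its canonical transcript has 3 exons. CASC11, a long noncoding RNA gene, overlaps MYC on the opposite strand and was not among the genes tested. MYC stood at 42.9, 49.1, 43.2, 48 and 48.8 CPM in DMSO replicates 1 to 5, and at 106, 120, 104, 93.9 and 84.2 CPM in SFN replicates 1 to 5. The DMSO libraries lay close together, the SFN libraries were spread more widely, and the lowest SFN library, replicate 5, still lay well above the highest DMSO library. The mean rose from 46.4 ± 3.07 to 102 ± 13.6 CPM (SD, n = 5), 2.19-fold, a log2 fold change of 1.13 ± 0.11 (standard error). The call held in all 16 alternative analyses, and with 1 library left out the log2 fold change lay between 1.07 and 1.19.

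MAX, the partner that MYC and its competitors share, was not called. MAX lies at chr14:65006174-65102695 on the minus strand, with 5 exons in its canonical transcript. MAX stood at 41.8, 57.6, 57.4, 56 and 54.5 CPM in DMSO and at 64.8, 59.5, 64.2, 59.6 and 63 CPM in SFN. Every SFN library lay above every DMSO library, but DMSO replicate 1 was far below the other DMSO libraries, and those came close to the SFN libraries. The means were 53.4 ± 6.63 CPM in DMSO and 62.2 ± 2.51 CPM in SFN (SD, n = 5), and the log2 fold change of 0.22 ± 0.11 was not called in the main or any of 16 alternative analyses. Without DMSO replicate 1 it was 0.14. FNTB, which encodes a farnesyltransferase subunit, overlaps MAX on the opposite strand and had a log2 fold change of -0.10. The long noncoding RNA gene ENSG00000259118, also on the opposite strand, overlaps MAX as well and had a log2 fold change of 0.38, and neither was called. The use of strand in the counting is not given in the sources used here, so reads of such pairs cannot be told apart.

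The 4 MXD genes and MNT, whose proteins pair with MAX and recruit SIN3 and histone deacetylases, did not move together. MXD1 had the largest rise of the 9 genes on the log2 scale. MXD1, known as an early response gene that rises when cells stop dividing and differentiate, lies at chr2:69897688-69942945 on the plus strand with 6 exons in its canonical transcript. MXD1 stood at 2.24, 5.24, 4.92, 5.54 and 5.33 CPM in DMSO and at 42.5, 39.4, 46.3, 41.8 and 55.8 CPM in SFN. The groups were far apart, with DMSO replicate 1 the lowest library and SFN replicate 5 the highest. MXD1 rested on 36 to 115 counts per library in DMSO and on 457 to 790 in SFN. The mean rose from 4.65 ± 1.37 to 45.2 ± 6.44 CPM (SD, n = 5), 9.67-fold, a log2 fold change of 3.27 ± 0.22, and it was 3.10 without DMSO replicate 1. The call held in all 16 alternative analyses. SNRNP27, a splicing factor gene that overlaps the start of the GENCODE span of MXD1 on the same strand but ends before the RefSeq start used for the sequence above, had a log2 fold change of 0.10 and was not called.

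MXD4 was higher in SFN by a smaller amount. MXD4, at chr4:2247432-2262109 on the minus strand with 6 exons, stood at 12, 9.66, 11.3, 10.4 and 9.47 CPM in DMSO and at 12.5, 17.5, 13.1, 16 and 13.6 CPM in SFN. The groups did not overlap, but the lowest SFN library, replicate 1, was close to the highest DMSO library, also a replicate 1. The mean rose from 10.6 ± 1.07 to 14.5 ± 2.12 CPM (SD, n = 5), and the log2 fold change was 0.46 ± 0.13. The call held in 9 of 16 alternative analyses. It was lost without DMSO replicate 2, 4 or 5 or SFN replicate 4, with log2 fold changes of 0.42 to 0.45. Scaling by library size only (0.38) and no low-count filter (0.45) ended it as well. So did a model with the replicate number as a block, called the replicate block below (0.45). The microRNA gene MIR4800 overlaps MXD4 on the same strand and was not among the genes tested.

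MXD3, an MXD protein known from dividing cells, went the other way. MXD3, at chr5:177301461-177312757 on the minus strand with 6 exons, stood at 33.7, 23.7, 19.8, 19.4 and 16.6 CPM in DMSO and at 13.9, 17.4, 15, 14.9 and 10.1 CPM in SFN. DMSO replicate 1 was the highest library, and the groups overlapped, since SFN replicate 2 lay above DMSO replicate 5. The mean fell from 22.6 ± 6.67 to 14.3 ± 2.67 CPM (SD, n = 5), a log2 fold change of -0.67 ± 0.20. Without DMSO replicate 1 the log2 fold change was -0.49, and the groups still overlapped. The call was lost without DMSO replicate 2 or SFN replicate 1, 3, 4 or 5, with log2 fold changes of -0.68 to -0.57, and by limma-voom (-0.56). RAB24 on the same strand and PRELID1 on the opposite strand overlap MXD3, and their log2 fold changes of 0.12 and 0.03 were not called.

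MXI1, also called MXD2, was not called in the main or any of 16 alternative analyses. MXI1, at chr10:110207605-110287365 on the plus strand with 6 exons, stood at 4.61, 5.92, 5.2, 7.95 and 7.46 CPM in DMSO and at 7.57, 6.73, 6.03, 6.41 and 7.63 CPM in SFN. The libraries of both groups were intermixed, and the highest of all was DMSO replicate 4. The log2 fold change was 0.14 ± 0.17 (standard error) and lay between 0.05 and 0.24 with 1 library left out and at 0.38 by limma-voom, so no change was detectable at 74 to 132 counts per DMSO library and 78 to 127 per SFN library. A long noncoding RNA gene on the opposite strand and a pseudogene on the same strand overlap MXI1 and were not among the genes tested.

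MNT, the broadly expressed MAX partner that represses MYC targets in dividing cells, was lower in SFN in the main analysis. MNT, at chr17:2384073-2401104 on the minus strand with 6 exons, stood at 4.17, 8.38, 10.5, 9.82 and 10.4 CPM in DMSO and at 5.13, 5, 3.95, 6.14 and 5.37 CPM in SFN. DMSO replicate 1 lay among the SFN libraries, while the other 4 DMSO libraries lay above all of them. The mean fell from 8.64 ± 2.63 to 5.12 ± 0.79 CPM (SD, n = 5), a log2 fold change of -0.75 ± 0.24, and without DMSO replicate 1 the log2 fold change was -0.93. The call held in 5 of 16 alternative analyses, that without DMSO replicate 1 among them. It was lost when any other single library was left out, with log2 fold changes of -0.83 to -0.67, and DMSO replicate 1 was the library whose removal moved the value furthest. The call was also lost by limma-voom (-0.49) and with the replicate block (-0.70). METTL16, an RNA methyltransferase gene within 5 kb of MNT on the same strand, was called lower as well, with a log2 fold change of -0.56. The long noncoding RNA gene ENSG00000262456 overlaps MNT on the opposite strand and was not among the genes tested.

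**Figure D2:**
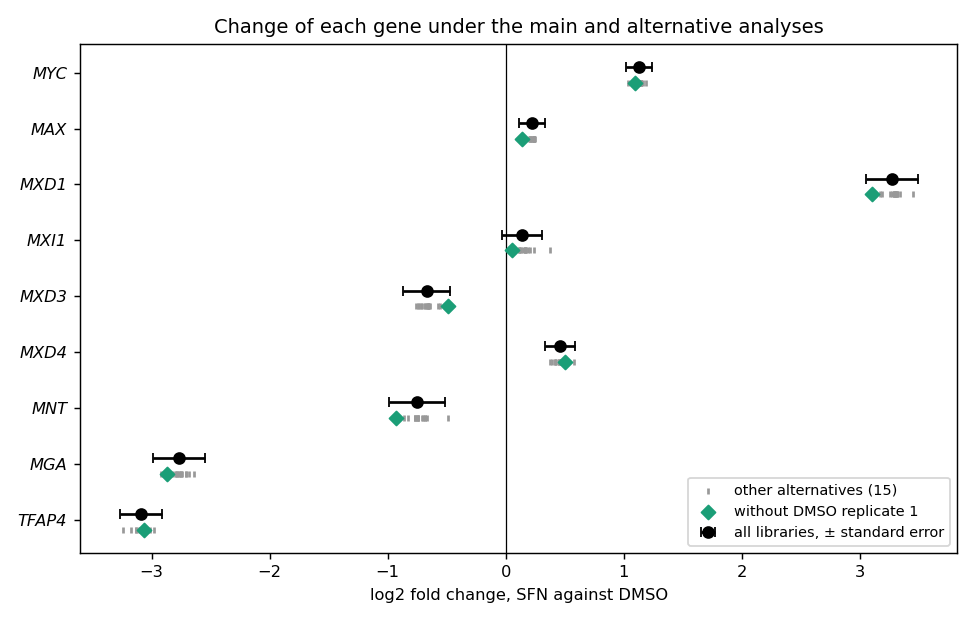
Log2 fold change of SFN against DMSO (horizontal axis) for each of the 9 genes; black points with bars are the values over all 10 libraries ± standard error, green diamonds leave out DMSO replicate 1, and grey ticks are the other 15 alternative analyses. All values of MYC and MXD1 lie right of 0 and all values of MGA and TFAP4 far left of it, and the values of MNT run from -0.93 to -0.49.

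Within a library, the share of each competitor does not depend on the library size, and the balance among the 5 repressor genes shifted. Of the counts of MXD1, MXI1, MXD3, MXD4 and MNT together, MXD1 made up 3.96%, 9.91%, 9.51%, 10.4% and 10.8% in DMSO replicates 1 to 5 and 52.1%, 45.8%, 54.9%, 49% and 60.4% in SFN replicates 1 to 5. The 95% Wilson intervals, which cover counting error only, ran from 2.87% to 5.43% in the lowest DMSO library and from 57.7% to 63% in the highest SFN library. In the highest DMSO library, replicate 5, the interval was 8.88% to 13.1%, and in the lowest SFN library, replicate 2, it was 42.7% to 48.9%. MXD1 was thus a small part of the counts in every DMSO library and about as many as the other 4 genes combined in the SFN libraries. The share of MXD3 was 42.6% ± 10.3 in DMSO and 16.7% ± 3.45 in SFN (SD, n = 5), and its ranges were 33.8% to 59.5% and 10.9% to 20.2%. The shares of a library add up to the whole, so the rise of MXD1 lowers every other share, and the levels of MXD3 in CPM overlapped between the groups. MNT held 16.6% ± 5.53 and 5.96% ± 0.91 (SD, n = 5), with DMSO replicate 1 at 7.36% and the highest SFN library at 7.21%. MXI1 held 11.9% ± 3.08 and 8% ± 0.82, and MXD4 held 20% ± 1.48 and 16.9% ± 2.48 (SD, n = 5). MXD4 counts therefore rose in CPM while the gene's mean share was lower. The summed level of the 5 genes, which leave out MGA, was 49.3 to 56.7 CPM in DMSO and 81.6 to 92.4 CPM in SFN, without overlap. The mean of this sum rose from 52.7 to 85.9 CPM, while that of MGA fell from 40.6 to 5.93 CPM. With MGA added, the sums of the 2 groups overlap, so the rise is one of this sum and not of all the competitors. Within the sum, the mean of MXD1 rose from 4.65 to 45.2 CPM and that of MXD4 from 10.6 to 14.5 CPM. MXI1 was not called and MXD3 and MNT were called lower, so the 5 genes did not rise as a group. Counts of 3′ ends compare a gene between libraries, and shares set beside each other within a library do not rank the amounts of different transcripts.

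**Figure D3:**
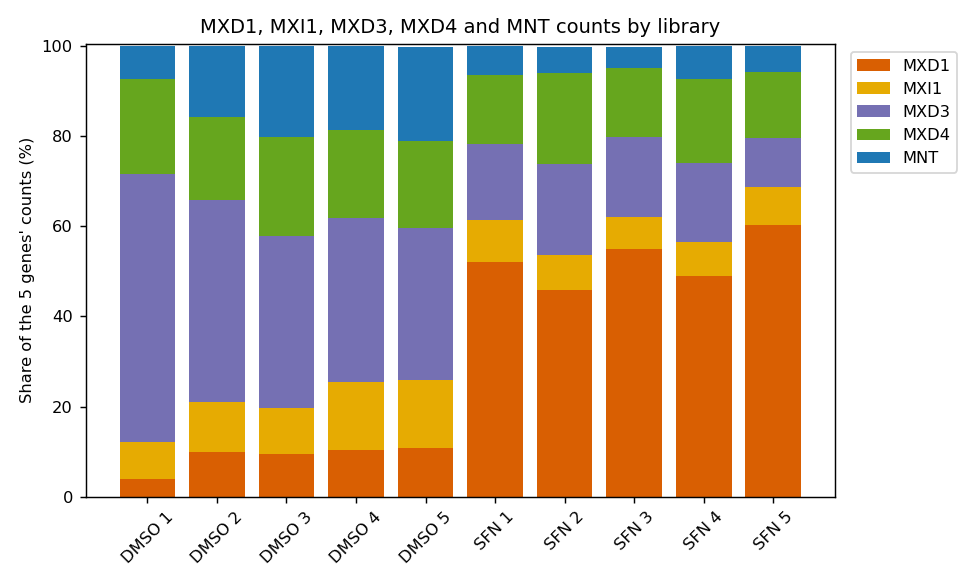
Share in percent (vertical axis) of the counts of MXD1, MXI1, MXD3, MXD4 and MNT in each of the 10 libraries, stacked to 100%. MXD1 makes up 3.96% to 10.8% in the DMSO libraries and 45.8% to 60.4% in the SFN libraries, and MXD3 goes from a mean of 42.6% to 16.7%.

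MGA, a very large MAX partner that also carries a T-box DNA-binding domain and scaffolds the Polycomb complex PRC1.6, was strongly lower in SFN. MGA lies at chr15:41621134-41773081 on the plus strand, and its canonical transcript has 24 exons and 12193 bases, against a median of 3173 bases over the tested genes. MGA stood at 29.5, 40.9, 50.3, 38.5 and 43.9 CPM in DMSO and at 5.01, 3.54, 5.96, 6.82 and 8.33 CPM in SFN. The groups were far apart, with DMSO replicate 1 the lowest DMSO library and SFN replicate 5 the highest SFN library. MGA rested on 473 to 900 counts per library in DMSO and on 41 to 118 in SFN. The mean fell from 40.6 ± 7.65 to 5.93 ± 1.81 CPM (SD, n = 5), 6.83-fold lower, a log2 fold change of -2.77 ± 0.22. The call held in all 16 alternative analyses, and with 1 library left out the log2 fold change lay between -2.92 and -2.64. MAPKBP1, which begins within 5 kb of the end of MGA on the same strand, had a log2 fold change of -0.42 and was not called. The long noncoding RNA genes ENSG00000260926 and ENSG00000260814 overlap MGA on the opposite strand, the latter near its 3′ end. A microRNA gene and a pseudogene overlap MGA as well, and none of these was among the genes tested.

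TFAP4 had the largest fall of the 9 genes on the log2 scale. TFAP4 lies at chr16:4257186-4273075 on the minus strand with 7 exons, and GENCODE 44 lists no gene that overlaps it. TFAP4 stood at 13.8, 11.4, 13, 11.6 and 14.3 CPM in DMSO and at 1.49, 1.12, 1.27, 2.09 and 1.48 CPM in SFN. Each DMSO library was several-fold above the highest SFN library, replicate 4. The mean fell from 12.8 ± 1.3 to 1.49 ± 0.37 CPM (SD, n = 5), 8.51-fold lower, a log2 fold change of -3.09 ± 0.18 that lay between -3.24 and -3.01 with 1 library left out. That call, too, held in all 16 alternative analyses. In SFN it rested on 13 to 31 counts per library, where counting alone gives a coefficient of variation of 21.6% and 24.8% was measured. TFAP4, a known MYC target, thus fell in the same libraries in which MYC rose.

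Ratios of counts within a library restate the same values in a form that no scaling between libraries can move, and they were chosen after the values were seen. For every 100 MYC counts there were 32.2, 23.2, 30.1, 24.2 and 29.4 TFAP4 counts in DMSO and 1.41, 0.931, 1.22, 2.23 and 1.76 in SFN. MXD1 gave 5.22, 10.7, 11.4, 11.6 and 10.9 counts per 100 MYC counts in DMSO and 40.1, 32.7, 44.5, 44.5 and 66.3 in SFN. In both ratios the groups did not overlap. MGA had a median of 71.1 counts per 100 MAX counts in DMSO (range 68.8 to 87.7) and of 9.28 in SFN (range 5.94 to 13.2). MYC had a median of 85.7 counts per 100 MAX counts in DMSO (range 75.3 to 103) and of 162 in SFN (range 134 to 202). MXD1 had 47.1 to 62.5 counts per 100 MNT counts in DMSO, a range that includes DMSO replicate 1, and 680 to 1174 in SFN. In DMSO replicate 1 both MXD1 and MNT were low, so their ratio there was in the range of the other DMSO libraries. MNT per 100 MAX counts overlapped between the groups, with 9.99 in DMSO replicate 1, 14.6 to 19 in the other DMSO libraries and 6.15 to 10.3 in SFN.

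**Figure D4:**
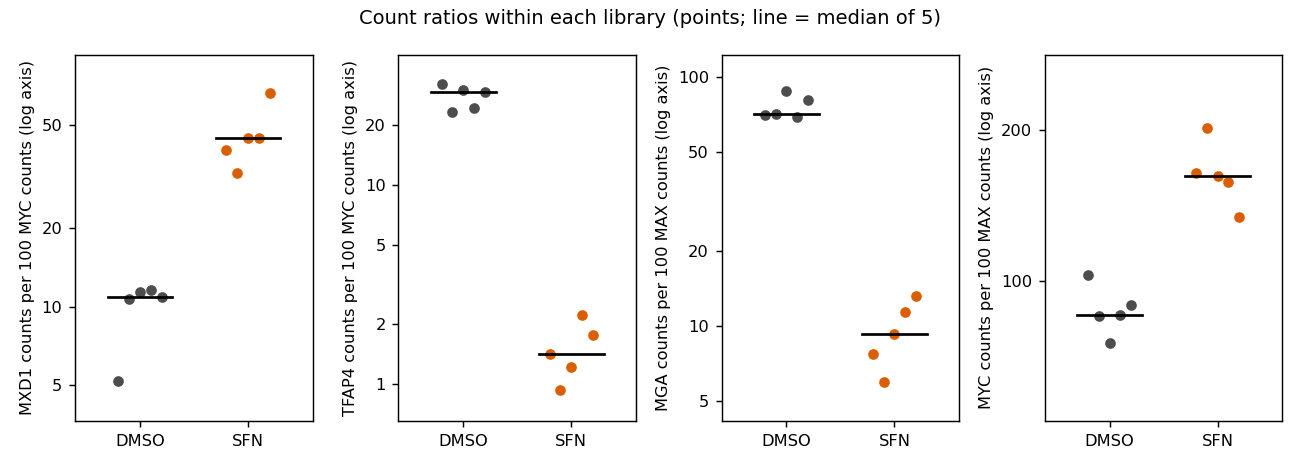
Ratios of counts within each library (vertical axes on a log scale) for 4 pairs of genes in the 5 DMSO and 5 SFN libraries; points are libraries and lines are group medians. TFAP4 per 100 MYC counts goes from a median of 29.4 to 1.41 and MXD1 per 100 MYC counts from 10.9 to 44.5, with no overlap of the groups in any of the 4 panels.

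Other genes of the network were taken from 8 lists. These were written by hand with earlier results of these data known, so their counts are a description and not independent evidence. Over all genes tested the median log2 fold change was -0.028, and the shares called were the 9.07% and 13.9% given above. In the fit without DMSO replicate 1, 22.5% of the 13566 genes tested were called higher and 23.5% lower, and list counts without that library are to be read against these shares. CBX3, WDR5 and ZFP36 each stand in 2 of the lists. Of the parallel MLX arm and the MYC paralogs, MLX and MLXIP alone had enough counts to test. MLXIP, a glucose-responsive partner of MLX, fell from 32.3 ± 4.13 to 20.2 ± 1.64 CPM (log2 fold change -0.68, adjusted p = 0.00134, edgeR quasi-likelihood), and MLX had a log2 fold change of -0.36. By edgeR 0 of these 2 genes were called higher and 1 lower. At an unadjusted p under 0.05 and by DESeq2 these counts were 0 and 2, and by limma 0 and 1. MLX was also called lower with scaling by library size only and without DMSO replicate 1 or 3 or SFN replicate 2.

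Of 24 cofactors and turnover factors of MYC, 2 were called higher and 5 lower, with a median log2 fold change of -0.06. These are 8.33% and 20.8%, where 9.07% and 13.9% of all genes were called. Without DMSO replicate 1, 5 were called higher and 8 lower, with a median of 0.00, in a fit that called 22.5% and 23.5% of all genes. SKP2, the F-box protein that both activates MYC and marks it for degradation, fell from 43.2 ± 4.28 to 20.9 ± 2.29 CPM (log2 fold change -1.05, adjusted p = 6.47e-05, edgeR quasi-likelihood). USP36, a deubiquitinase that stabilizes MYC in the nucleolus, fell with a log2 fold change of -1.21 (adjusted p = 0.0031 by the same edgeR test). DMSO replicate 1 of USP36 stood at 141 CPM against 59 to 65.2 in the other DMSO libraries, and without it the log2 fold change was -0.89. AURKA, a kinase that can protect MYC proteins from degradation, rose from 149 ± 6.32 to 196 ± 10.8 CPM (log2 fold change 0.40, adjusted p = 0.00652 by edgeR), a call that was lost with no low-count filter (0.39). FBXW7, the F-box protein that directs phosphorylated MYC to degradation, had a log2 fold change of -0.68 (adjusted p = 0.0318 by edgeR) and of -0.43 without DMSO replicate 1. Its call was lost without DMSO replicate 3 or any of SFN replicates 1 to 4 (-0.69 to -0.65), by limma-voom (-0.53) and with the replicate block (-0.62). EP400 of the TIP60 complex (-0.73, adjusted p = 0.0393 by edgeR, and -0.90 without DMSO replicate 1, which at 55.9 CPM lay among the SFN libraries), the ubiquitin ligase MYCBP2 (-0.65, adjusted p = 0.0225) and the phosphatase subunit PPP2R5A (0.39, adjusted p = 0.043) were also called. With 1 library left out their log2 fold changes lay between -0.90 and -0.62, between -0.85 and -0.57, and between 0.31 and 0.42. The call of MYCBP2 was lost without any of SFN replicates 1 to 4, that of EP400 without any of these or of DMSO replicates 2 to 5, and that of PPP2R5A without any library but DMSO replicate 1. SFN replicate 5 of MYCBP2, at 73.7 CPM, lay within the DMSO range of 63.2 to 91.1 CPM. PPP2R5A was called in 4 of 16 alternative analyses, and lost its call also with scaling by library size only (0.29), with no low-count filter (0.38) and with the replicate block (0.40).

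Of 27 factors reported to control MYC transcription or mRNA, 1 was called higher and 4 lower, with a median of -0.08. These are 3.7% and 14.8%, where 9.07% and 13.9% of all genes were called. Without DMSO replicate 1 the counts were 3 and 8, in a fit that called 22.5% and 23.5% of all genes. The gene called higher was ZFP36, which is also on the list of MYC-repressed genes and was called in 4 of 16 alternative analyses. CDK9, the kinase of the elongation factor P-TEFb, fell from 31.2 ± 1.43 to 11.3 ± 0.96 CPM (log2 fold change -1.47, adjusted p = 2.09e-06, edgeR quasi-likelihood). HEXIM1, which holds P-TEFb inactive, fell as well (-2.02, adjusted p = 1.84e-07 by the same edgeR test), with every SFN library between 17.8 and 21.1 CPM. CTCF, an insulator protein that binds at MYC, fell from 95.7 ± 14.2 to 60.5 ± 6.63 CPM (log2 fold change -0.66, adjusted p = 0.00297 by edgeR). The bromodomain gene BRD3 (-0.44, adjusted p = 0.0376 by edgeR) was -0.31 without DMSO replicate 1. Its call was lost without DMSO replicate 2 or 4 or any of SFN replicates 1 to 4 (-0.46 to -0.39), with no low-count filter (-0.45) and with the replicate block (-0.43).

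Of 20 genes of the SIN3 and HDAC complex, the corepressors through which MXD proteins act, 2 were called higher and 3 lower (10% and 15%, near the 9.07% and 13.9% of all genes), with a median of -0.09, and without DMSO replicate 1 these were 5 and 6 with a median of 0.05, in a fit that called 22.5% and 23.5% of all genes. SAP30L rose from 27.5 ± 3.88 to 40.2 ± 1.64 CPM (log2 fold change 0.55, adjusted p = 0.00416, edgeR quasi-likelihood) and the chromatin reader ING1 from 23.3 ± 1.53 to 33.7 ± 2.78 CPM (0.53, adjusted p = 0.00264). Both calls held in all 16 alternative analyses. SIN3A, the scaffold that MXD proteins bind, stood at 30, 85.1, 81.3, 89.2 and 89.3 CPM in DMSO and at 41.2, 39.8, 40.1, 39.7 and 51.8 CPM in SFN. DMSO replicate 1 lay below all SFN libraries and the other DMSO libraries above all of them. The log2 fold change of SIN3A was -0.82 (adjusted p = 0.034 by edgeR) and -1.03 without that library. The call was lost without any of DMSO replicates 2 to 5 or SFN replicates 1 to 4 (-0.81 to -0.75), by limma-voom (-0.75) and with the replicate block (-0.74). ING2 went the opposite way in DMSO replicate 1, with 83.9 CPM against 32.8 to 38 in the other DMSO libraries. Its log2 fold change was -0.80 (adjusted p = 0.0362 by edgeR) and -0.45 without that library, and the call was lost without any 1 of the SFN libraries (-0.82 to -0.75) and by limma-voom (-0.67). SUDS3 had a log2 fold change of -0.35 (adjusted p = 0.0339 by edgeR). Its call was lost without DMSO replicate 2 or 4 or any of SFN replicates 1 to 4 (-0.35 to -0.31), with no low-count filter (-0.35) and with the replicate block (-0.35).

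Beside MGA itself, 10 genes of its PRC1.6 complex were tested, of which 1 was called higher and 2 lower, with a median of -0.11. The shares were 10% and 20%, where 9.07% and 13.9% of all genes were called. Without DMSO replicate 1 the counts were 2 and 3, with a median of -0.05, in a fit that called 22.5% and 23.5% of all genes. The ubiquitin ligase RNF2 fell from 21.8 ± 1.83 to 14.1 ± 1.3 CPM (log2 fold change -0.63, adjusted p = 0.00139, edgeR quasi-likelihood). L3MBTL2, which reads histone marks in this complex, fell from 29.2 ± 1.14 to 19.8 ± 1.31 CPM (-0.56, adjusted p = 0.00109 by the same edgeR test). RYBP, which joins RNF2 complexes, rose from 32.8 ± 6.4 to 60.8 ± 5.3 CPM (0.89, adjusted p = 0.00105 by edgeR). All 3 calls held in the 16 alternative analyses. The other complex members, PCGF6, E2F6, TFDP1, RING1, YAF2, CBX3 and WDR5, were not called.

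Of 73 tested genes that MYC is known to induce, many of them for ribosome production, 2 were called higher and 18 lower. Their median log2 fold change was -0.20, and 26 had a positive value. The shares called were 2.74% and 24.7%, where 9.07% and 13.9% of all genes were called. Without DMSO replicate 1, 8 were called higher and 28 lower, with a median of -0.14, in a fit that called 22.5% and 23.5% of all genes. Without SFN replicate 3, 1 was called higher and 10 lower, in a fit that called 906 and 1477 of 13599 genes. Without DMSO replicate 3 or SFN replicate 1 or 4, 11 were called lower. The rRNA processing factors RCL1 and WDR43 fell from 14.3 ± 1.17 to 6.52 ± 1.16 CPM (log2 fold change -1.12, adjusted p = 0.000164, edgeR quasi-likelihood) and from 220 ± 14.4 to 114 ± 12 CPM (-0.95, adjusted p = 6.2e-05). PUS1, a pseudouridine synthase, fell from 33.3 ± 2.02 to 16 ± 2.11 CPM (-1.05, adjusted p = 6.53e-05 by edgeR). PPRC1, a coactivator of mitochondrial genes, had a log2 fold change of -1.15 (adjusted p = 0.00185 by edgeR) and of -1.32 without DMSO replicate 1. That library, at 40.3 CPM, lay within the SFN range of 31.9 to 42.7 CPM for PPRC1. In the other direction, the arginine methyltransferase PRMT3 rose from 33.8 ± 2.97 to 45.6 ± 4.62 CPM (0.43, adjusted p = 0.0142 by edgeR). Its call was lost with scaling by library size only (0.34), with no low-count filter (0.42) and with the replicate block (0.43). The mitochondrial chaperonin HSPD1 had a log2 fold change of 0.48 (adjusted p = 0.0337 by edgeR) and of 0.64 without DMSO replicate 1, and its call was lost without any of DMSO replicates 2 to 5 or SFN replicate 1, 3 or 4 (0.44 to 0.48) and with no low-count filter (0.48). DMSO replicate 1 of HSPD1, at 1515 CPM, lay within the SFN range of 1386 to 1557 CPM.

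Of 13 tested genes that MYC is known to repress, 5 were called higher and 0 lower by edgeR, with a median log2 fold change of 0.31. These are 38.5% and 0%, where 9.07% and 13.9% of all genes were called. At an unadjusted p under 0.05, 6 were higher and 1 lower, and DESeq2 called 6 and 0 and limma 5 and 0. Without DMSO replicate 1 the counts were 6 and 1, with a median of 0.24. Without DMSO replicate 2 or 4 or SFN replicate 1 they were 2 and 0, in fits that called 921 to 942 of 13546 to 13591 genes higher. With scaling by library size only or no low-count filter they were 3 and 0. CDKN1A, the cell cycle inhibitor that TFAP4 also represses, stood at 37.7, 38.5, 47.4, 34.6 and 41.9 CPM in DMSO and at 56, 65.7, 54.7, 53.2 and 45.3 CPM in SFN. SFN replicate 5, which was also the lowest SFN library for MYC, lay below DMSO replicate 3, and the other SFN libraries lay above all DMSO libraries. CDKN1A rose with a log2 fold change of 0.46 (adjusted p = 0.0208, edgeR quasi-likelihood). Its call was lost without DMSO replicate 2 or 4 or SFN replicate 1 (0.41 to 0.45), with scaling by library size only (0.36), with no low-count filter (0.44) and with the replicate block (0.46). The chaperone CLU rose from 17.6 ± 2.35 to 27.2 ± 2.84 CPM (0.63, adjusted p = 0.00341 by edgeR), and its call held in all 16 alternative analyses. DDIT3, a stress factor of the unfolded protein response, had the largest rise of the list (2.21, adjusted p = 1.07e-05 by edgeR). GADD45A (0.74, adjusted p = 0.043 by edgeR) was 1.06 without DMSO replicate 1, and its call was lost without any of DMSO replicates 2 to 5 or SFN replicates 1 to 4 (0.66 to 0.76). DMSO replicate 1 of GADD45A, at 246 CPM, lay within the SFN range of 184 to 270 CPM. The mRNA decay factor ZFP36 rested on at most 73 counts per SFN library (0.63, adjusted p = 0.0486 by edgeR). Its call was lost without any single library but DMSO replicate 1 (0.48 to 0.72), with scaling by library size only (0.55), with no low-count filter (0.62) and with the replicate block (0.66).

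Among 23 other E-box-binding bHLH factors and ID inhibitors tested, 3 were called higher and 6 lower, with a median of -0.17. These are 13% and 26.1%, where 9.07% and 13.9% of all genes were called. Without DMSO replicate 1 the counts were 5 and 7, in a fit that called 22.5% and 23.5% of all genes. The repressors BHLHE41 and BHLHE40, which bind CACGTG in the circadian clock, fell from 42.9 ± 2.24 to 10.2 ± 2.03 CPM (log2 fold change -2.07, adjusted p = 1.87e-06, edgeR quasi-likelihood) and from 21.1 ± 0.77 to 10.6 ± 0.54 CPM (adjusted p = 2.16e-05). TWIST1, a mesenchymal bHLH factor, fell from 17.2 ± 1.92 to 6.84 ± 1.06 CPM (-1.33, adjusted p = 4.35e-05 by edgeR). The MiT family, which binds the same E-box, split, since MITF fell (-1.12, adjusted p = 5.27e-05 by edgeR) and TFE3 rose from 51.8 ± 11.7 to 83.6 ± 3.84 CPM (0.69, adjusted p = 0.00628). TFEB of the same family fell (-1.73, adjusted p = 0.00287 by edgeR) on 18 to 43 counts per DMSO library. HEY1, a Notch target, rose from 0.79 ± 0.34 to 2.79 ± 0.36 CPM (1.80, adjusted p = 0.000739 by edgeR), with 6 to 22 counts per DMSO library. The ID proteins, which block bHLH factors, split as well, with ID2 at -2.07 (adjusted p = 0.0238 by edgeR) and ID3 at 0.85 (adjusted p = 0.043). ID2 had at most 15 counts in any SFN library, and its call was lost without SFN replicate 1 or 3 (-2.07 and -1.81). ID3 was 1.16 without DMSO replicate 1, and its call was lost without any of DMSO replicates 2 to 5 or SFN replicates 1 to 4 (0.71 to 0.88). DMSO replicate 1 of ID3, at 51.8 CPM, lay within the SFN range of 35.6 to 67 CPM.

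**Figure D5:**
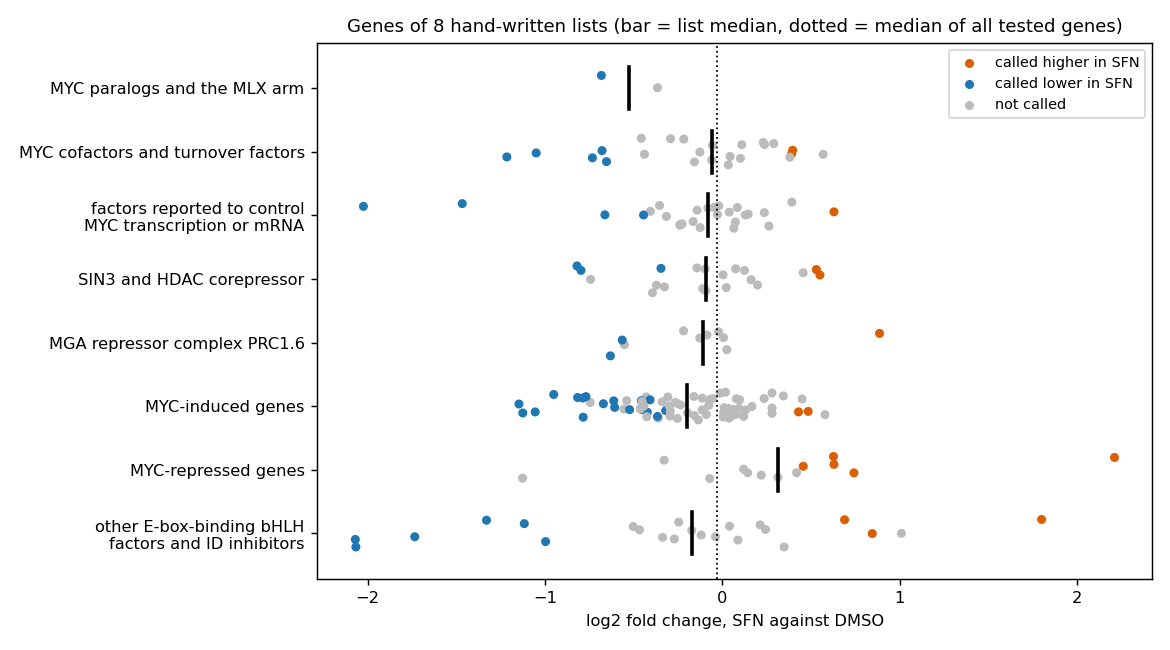
Log2 fold change of SFN against DMSO (horizontal axis) for the tested genes of 8 lists; each point is a gene, orange and blue mark genes called higher and lower by edgeR, black bars are list medians, and the dotted line is the median of all tested genes, -0.028. The MYC-induced genes have a median of -0.20 with 18 blue points and 2 orange ones, and the MYC-repressed genes have a median of 0.31 with 5 orange points.

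The genes whose pattern over the 10 libraries was most like that of a member were found by Pearson's correlation of log2 CPM among 10039 genes with a mean of at least 5 CPM, as a description in which the treatment difference is shared by all 10 points. For MYC these were PSAT1, an enzyme of serine synthesis (r = 0.989), the unfolded protein response factor XBP1 (r = 0.986) and the phospholipid-binding protein gene ANXA5 (r = 0.986). For MXD1 they were RBM23, an RNA-binding protein gene (r = 0.995), the antiapoptotic gene MCL1 (r = 0.995) and the EGFR inhibitor gene ERRFI1 (r = 0.994). For TFAP4 they were the ciliary gene TOGARAM1 (r = 0.995), HEXIM1 (r = 0.995) and the mRNA decay factor gene ZFP36L2 (r = 0.994).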

How the data were processed

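RNA of RPE-1 cells exposed to the vehicle or to SFN (5 libraries each) was sequenced by the authors as Lexogen QuantSeq libraries. The authors deposited raw counts per gene, with no normalization and with replicates kept apart. Their methods name the Bluebee pipeline and GRCh38, and the submitters' processing notes also list FastQC, STAR, featureCounts and edgeR. The annotation release and whether counting used strand or molecular identifiers are not given in the sources used here.

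Groups were taken from the labels. Genes were filtered with filterByExpr, scaled by TMM and compared with edgeR 4.0.16 (glmQLFit and glmQLFTest, R 4.3.3) with Benjamini-Hochberg adjustment over 13378 genes, and a call is an adjusted p under 0.05. CPM use the TMM library sizes. Standard errors are log2 fold changes, without sign, over the root of F. DESeq2 1.42.0 and limma 3.58.1 (voom with quantile normalization), other scalings, no filter, a replicate block and leaving out each replicate gave 16 alternatives. On simulated counts DESeq2 made a larger share of false calls than edgeR or limma, and edgeR missed more of the smaller changes than a first criterion allowed, which was then loosened. A gene not called is thus not shown to be unchanged. The authors' model for repeated measures was not run. The chi-square per degree of freedom between replicates was 3.05 to 199, so none was a copy of another.

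The genes described and the lists were chosen with earlier results of these data known, and the lists were written by hand. Within-library ratios and shares were chosen after the values were seen. Named are the 9 genes, every called gene of the 6 shorter lists, up to 4 called genes in each direction with a mean of at least 5 CPM in the 2 longest, the 3 genes most correlated with MYC, MXD1 and TFAP4, and HMOX1. Positions are from GENCODE 44 (28145 of 28380 identifiers matched) and promoters from RefSeq (GRCh38.p14). A comparison of the presence of CACGTG or CAGCTG with fold change is not reported, because promoter coverage was below the limit set for it. Of 13368 tested symbols, 9724 had a promoter.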

Additional observations from a re-analysis of the deposited data

Results flagged for a closer look

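Within each group of 5 libraries, a library was singled out where its distance to the nearest other library, divided by the range of the group, was above Dixon's critical value of 0.71. Of 118 groups examined (58 named genes and the total counts), 18 had such a library. Independent groups with a normal spread would give about 5.9. The groups here reuse the same libraries and are not independent, so the number flagged cannot be judged against that value. DMSO replicate 1 was the library singled out in 14 of the 18 groups. For the genes of the MYC network this was MAX (0.81) and MXD1 (0.81). Among MYC cofactors and control factors it was USP36 (0.92), FBXW7 (0.76), EP400 (0.90) and BRD3 (0.76), and among SIN3 corepressor genes ING2 (0.90) and SIN3A (0.87). Among MYC-induced genes it was HSPD1 (0.91) and PPRC1 (0.75), and among the rest GADD45A (0.92), ID3 (0.75), MCL1 (0.80) and ERRFI1 (0.82). The log2 fold change of MAX was 0.14 without this library and that of MXD1 was 3.10. In SFN, replicate 5 stood out for MYCBP2 (0.77) and SIN3A (0.88), replicate 4 for HEXIM1 (0.76) and replicate 2 for SAP30L (0.80).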

How the results depend on the processing

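Over the 16 alternatives, 120 of 144 values of the 9 genes kept their direction and their side of the threshold, 24 were no longer called and 0 reversed. Of 784 values of 49 other named genes, 673 kept both, 111 were no longer called and 0 reversed. With 1 library left out, genes called higher numbered 906 to 3058 and genes called lower 1470 to 3193, both highest without DMSO replicate 1. Among the 9 genes, calls were lost for MXD3 (-0.56 by limma-voom), MXD4 (0.38 with scaling by library size only, 0.45 with no low-count filter) and MNT (-0.49 by limma-voom), and for each when certain single libraries were left out, and the cause was not tested. Over all libraries left out in turn, whether or not the call was lost, MXD3 lay between -0.76 and -0.49, MXD4 between 0.39 and 0.51 and MNT between -0.93 and -0.67. The 111 lost values belong to 16 of the 49 other genes. The replicate block gave 911 higher and 1530 lower calls and ended those of MXD4 (0.45) and MNT (-0.70), and among the other named genes those of FBXW7 (-0.62), PPP2R5A (0.40), BRD3 (-0.43), SUDS3 (-0.35), SIN3A (-0.74), PRMT3 (0.43), CDKN1A (0.46) and ZFP36 (0.66). Deviations of same-numbered libraries correlated between -0.267 and 0.484, and 1 of 5 DMSO libraries correlated best with its own number. DMSO replicates 2, 3, 4 and 5 all correlated best with SFN replicate 5 (0.355, 0.363, 0.501 and 0.484). The deviations were taken from group means that include DMSO replicate 1, so this check cannot show whether same-numbered libraries were paired. Scaling by library size only moved the median log2 fold change of all genes from -0.028 to -0.111.

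List counts also moved. Over the alternatives, MYC-induced genes called lower numbered 10 to 28 and higher 0 to 8, and MYC-repressed genes called higher numbered 2 to 6 and lower 0 to 1. For cofactors the counts were 0 to 5 higher and 2 to 8 lower, for MYC control factors 0 to 3 and 3 to 8, for SIN3 genes 2 to 5 and 0 to 6, for PRC1.6 genes 1 to 2 and 2 to 3, for the MLX arm 0 and 1 to 2, and for other bHLH and ID genes 2 to 5 and 5 to 7. With 13 to 31 TFAP4 counts in SFN, counting error is a large part of its spread.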
